A study of Homo sapiens with 4 samples.

Results

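The clustered histone genes were defined as the gene symbols that begin with HIST1H, HIST2H, HIST3H or HIST4H in the deposited transcript tables, which gave 73 genes with 76 transcripts among 23287 gene symbols with 41138 transcripts. By the class in the symbol, 6 belong to the linker histone H1, 18 to H2A, 20 to H2B, 14 to H3 and 15 to H4. Pseudogenes or non-coding entries with such a symbol were kept and counted. On hg19, the 56 HIST1 genes lie on chromosome 6 between 25726291 and 27861669, the 13 HIST2 genes lie on chromosome 1, the 3 HIST3 genes lie on chromosome 1 between 228612546 and 228646259, and *HIST4H4* lies on chromosome 12 between 14923654 and 14924065. T47D cells, a human breast cancer line that expresses the progesterone receptor (PR), were kept in charcoal-stripped serum and were then treated with 10 nM of the synthetic progestin R5020 or with the vehicle ethanol (EtOH) for 3 h before poly(A)+ RNA was sequenced. PR binding sites came from chromatin immunoprecipitation of the same line after 10 nM R5020 for 1 h, with input DNA as the authors' control. There was 1 library for each condition, so no p-value is given and every difference compares these libraries.

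Core histones form the protein spool around which DNA is wrapped, and H1 binds the DNA between the spools. Most clustered histone genes are transcribed mainly in S phase, when new DNA has to be packed. Their mRNAs end in a short stem-loop that the stem-loop binding protein SLBP recognises instead of in a poly(A) tail, although some members are also known to make longer polyadenylated forms. The RNA sequenced here was selected on oligo(dT) beads, so the values describe what that selection retained and not the whole of histone mRNA.

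The stem-loop was searched as 16 bases with 6 paired bases and a loop of 4 on the strand of each model in the genome of the hg19 assembly. It was found in the loci of 71 of the 75 transcripts whose strand could be assigned. The loci of *HIST1H2APS1*, *HIST1H2BI*, *HIST1H3E* and *HIST1H4L* had no match. Introns were not removed, so in a spliced model the stem-loop need not lie in the transcript. In 62 transcripts the deposited model ended 0 to 11 bases after it, with a median of 5. The stem-loops below are those of the 3 members with the highest level in EtOH, of *HIST1H1C* and *HIST1H2AC*, which followed them, and of the 3 members with the largest log2 fold changes among those at 1 FPKM or more in either library. Capitals mark the stem-loop and the coordinates are those of the capitals on hg19.
HIST1H2BD, chr6:26158815-26158830, plus strand: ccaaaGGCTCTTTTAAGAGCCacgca
HIST1H2BK, chr6:27114145-27114160, minus strand: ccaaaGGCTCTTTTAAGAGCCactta
HIST2H2BE, chr1:149857738-149857753, minus strand: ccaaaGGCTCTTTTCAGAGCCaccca
HIST1H1C, chr6:26055972-26055987, minus strand: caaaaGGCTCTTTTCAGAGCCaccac
HIST1H2AC, chr6:26124897-26124912, plus strand: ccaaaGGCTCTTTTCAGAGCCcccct
HIST1H4H, chr6:26285359-26285374, minus strand: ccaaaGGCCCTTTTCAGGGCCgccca
HIST3H2A, chr1:228645070-228645085, minus strand: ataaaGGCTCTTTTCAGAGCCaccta
HIST1H2BG, chr6:26216446-26216461, minus strand: tcaaaGGCTCTTTTCAGAGCCactca

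Over 69 distinct stem-loop positions there were 7 sequences. The form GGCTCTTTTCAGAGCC, printed for *HIST1H2AC*, stood at 42 positions and at none of an H4 gene. All 14 H4 positions had GGCCCT in the 5′ arm, 10 with the loop of *HIST1H4H* and 4 with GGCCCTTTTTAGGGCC. The stem thus set the H4 genes apart, while H1, H2A, H2B and H3 genes shared their common forms.

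A few models went on past the stem-loop in the genome. Among them, 5 transcripts of 4 genes (*HIST1H2BD*, *HIST1H2BK*, *HIST2H2BE* and *HIST2H2BF*) ended more than 100 genomic bases after it, introns included. They held the polyadenylation signal AATAAA in their last 50 bases. The models of *HIST1H2BD* and *HIST1H2BK* are spliced, as is a model of *HIST2H2BF*, and whether their exons hold the stem-loop was not checked. Levels are given in FPKM, fragments scaled to transcript length and to the mapped fragments of the library. The summed level of these 5 transcripts was 72.5 FPKM in EtOH and 61.8 FPKM in R5020, which was 36.8% and 37.9% of the summed level of all members. *HIST1H2BD*, *HIST1H2BK* and *HIST2H2BE* were also the 3 members with the highest level in EtOH.

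*HIST1H2BD* shows both kinds of model side by side. Its 813 nt transcript, which is spliced and goes on to a polyadenylation signal, had a level of 29.7 FPKM in EtOH and 21.8 FPKM in R5020. The 487 nt transcript, which ends 5 bases after the stem-loop, was listed at 0 in both libraries. Of its 50-base windows 89.95% occurred once in the genome, but both models begin at the same base. That share therefore does not tell reads of the models apart, and the 0 does not show that the shorter form was absent. *HIST2H2BE*, whose 2223 nt model is the longest of all members and ends 1728 bases after the stem-loop, was at 17.2 and 13.8 FPKM. The loci of *HIST1H2BK* and *HIST1H4I* overlap in the annotation, but whether their exons do was not checked. *HIST1H4I* was at 0.235 and 0 FPKM. The 24.3 and 25.4 FPKM of *HIST1H2BK* are uncertain to the extent that reads were split between the 2 genes.

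Most members were low. The authors' criterion for keeping a gene, an FPKM of 1 or more in either library, was met by 27 of the 73 genes (36.99%), against 47.3% of all gene symbols. Of the other 46 members, 20 were listed at 0 in both libraries and 26 had a level above 0 but under 1. Among the retained members 15 stayed under 5 FPKM in both conditions and 7 reached 10 FPKM in either. Their median read coverage, which is not scaled to the library, was 18.0 in EtOH and 15.4 in R5020. The lowest was 2.86 and 1.36 and the highest 141 and 115, so the members near 1 FPKM rest on few reads and the depth sets their precision.

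**Figure D1:**
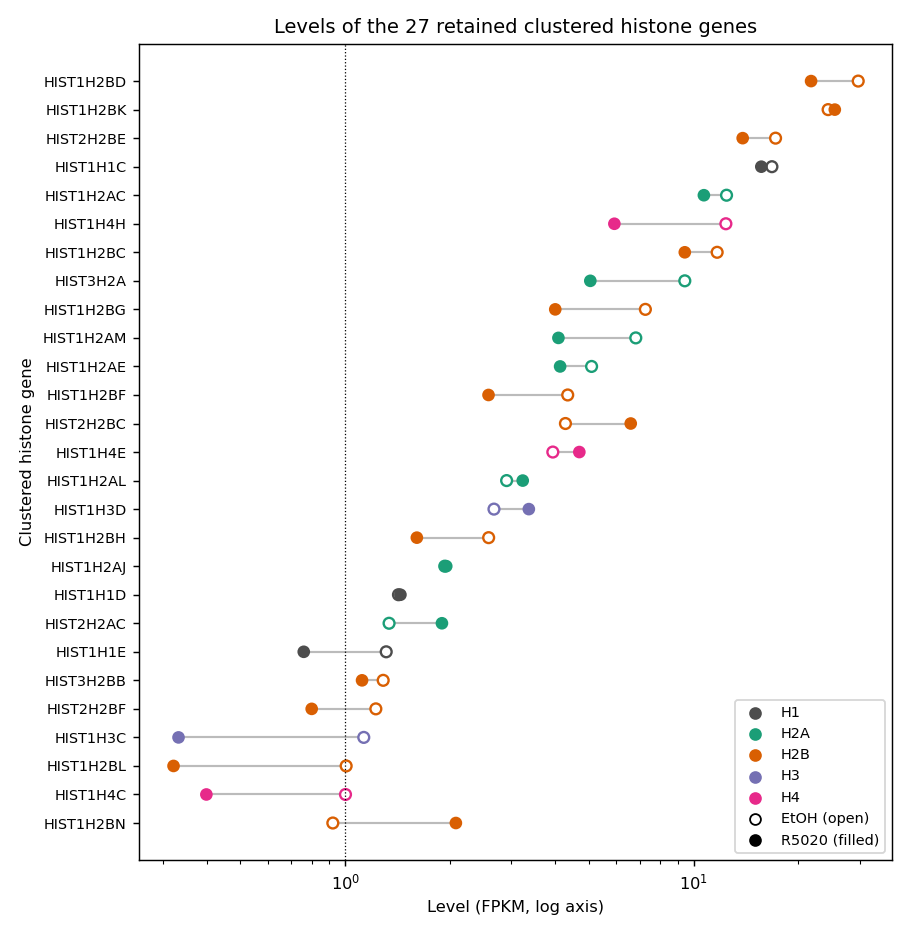
Levels of the 27 retained clustered histone genes in FPKM on a log axis, 1 row per gene, with open circles for EtOH and filled circles for R5020, 1 library each, coloured by histone class. The dotted line marks 1 FPKM, HIST1H2BD is the highest in EtOH at 29.7, and the filled circle lies left of the open one for 18 of the 27 genes.

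On the log2(FPKM + 1) scale the members tended to be lower in R5020. Of the 27 retained members, 6 were at least 1.5-fold lower, 1 was at least 1.5-fold higher and 20 differed by less. Among all 11018 retained genes, 4.14% were lower and 7.67% higher by the same threshold. The median log2 fold change was −0.28 over the retained members and 0.01 over all retained genes, and 18 of the 27 members were below 0. The summed level of all members was 197 FPKM in EtOH and 163 FPKM in R5020, and it fell by 17.2%. The 5 highest members held 51.0% of the sum in EtOH and 53.6% in R5020.

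By its median, the difference was not particular to histone genes among genes with short transcripts. All 7 members past the threshold had transcripts of 350 to under 600 nt, the range that held 19 of the retained members. The 121 other retained genes with a longest transcript in this range had a median log2 fold change of −0.30, against −0.28 for the 19 members. Of these other genes 18.2% were at least 1.5-fold lower and 2.48% at least 1.5-fold higher, against 31.6% and 5.26% of the 19 members. Below 0 were 103 of the 121 other genes, against 13 of the 19 members. The 121 include 26 genes of ribosomal proteins, with a median of −0.24, and the 95 without them had a median of −0.32. The 32 of those under 10 FPKM in both conditions, the range of most members, had a median of −0.30 with 9 lower and 2 higher.

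With longer transcripts the median of the other genes moved towards 0. It was −0.12 over 492 genes with transcripts of 600 to under 1000 nt, −0.04 over 2232 genes of 1000 to under 2000 nt and 0.03 over 8006 genes of 2000 nt or more. The 6 retained members of 600 to under 1000 nt had a median of −0.04, and the 2 longer ones, *HIST2H2BF* and *HIST2H2BE*, were at −0.30 and −0.29. Member transcripts ranged from 354 to 2223 nt with a median of 466.5 nt, against 2465 nt over all transcripts, and 63 of the 76 were under 600 nt. Once the median of the other genes in the same length range was subtracted, an alternative chosen after the data were seen, the median of the members was 0.019, with 1 lower and 3 higher. Progestin treatment and a difference between the libraries in the handling of short transcripts cannot be told apart here.

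**Figure D2:**
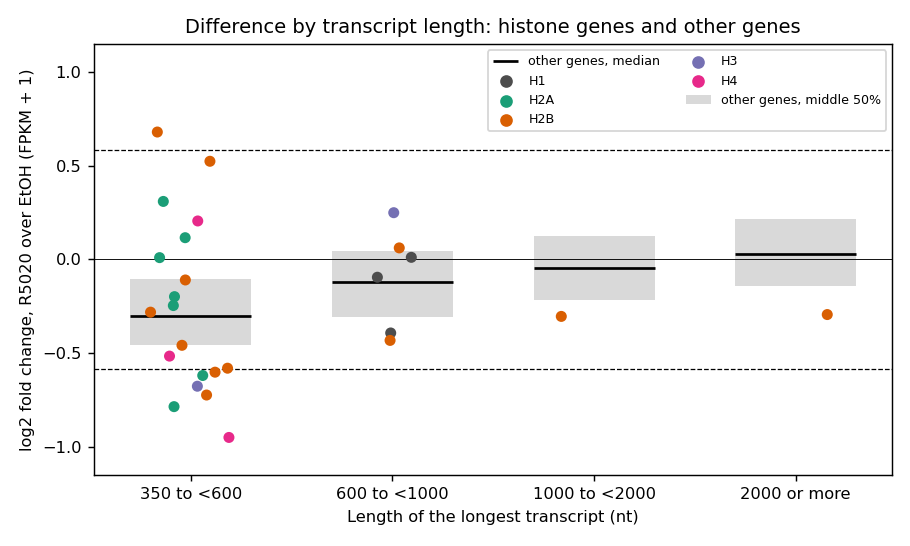
The log2 fold change of R5020 over EtOH on the FPKM + 1 scale by length of the longest transcript in nt. Points are the 27 retained clustered histone genes, spread sideways at random within their length range and coloured by class, grey boxes span the middle 50% of the other retained genes, black lines are their medians and dashed lines mark 1.5-fold. The grey median lies at −0.30 for 350 to under 600 nt and at 0.03 for 2000 nt or more, and all 7 points past the dashed lines are in the shortest range.

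The deposited intervals point to a further limit, mainly for short transcripts. Cufflinks gives each FPKM a confidence interval, and among member transcripts at 1 FPKM or more the value lay above its own interval for 18 of 26 in EtOH and 17 of 22 in R5020. Over all transcripts at that level the share was 19.9% in EtOH and 20.0% in R5020. Under 600 nt it was 16 of 18 and 16 of 16 member transcripts, against 73.5% of all transcripts of that length in either library. The FPKM of these short members was at the median 2.39 and 2.42 times the midpoint of its interval in EtOH and R5020, while it was 1.02 and 1.01 times the midpoint for members of 600 nt or more. The longest member, *HIST2H2BE*, went against this median. Its 17.2 FPKM in EtOH had an interval of 6.92 to 8.44, and its 13.8 FPKM in R5020 had 5.57 to 6.83. Its high level thus carries the same limit. With the midpoints in place of the FPKM, also chosen after the data were seen, 2 members were lower and none higher.

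H2A and H2B, which pair with each other in the core, made up most of the summed member FPKM. The 20 H2B genes summed to 108 FPKM in EtOH and 92.1 FPKM in R5020, which was 54.7% and 56.4% of the member total. Their log2 ratio of sums, with 1 added to each sum, was −0.22. The 18 H2A genes summed to 43.4 and 33.6 FPKM, a log2 ratio of −0.36. Summed levels of short-transcript classes carry the limits of length described above, and H2B alone holds members longer than 1000 nt. Members with an identical copy, described below, were listed at 0 and add nothing to the H2A, H3 and H4 sums.

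**Figure D3:**
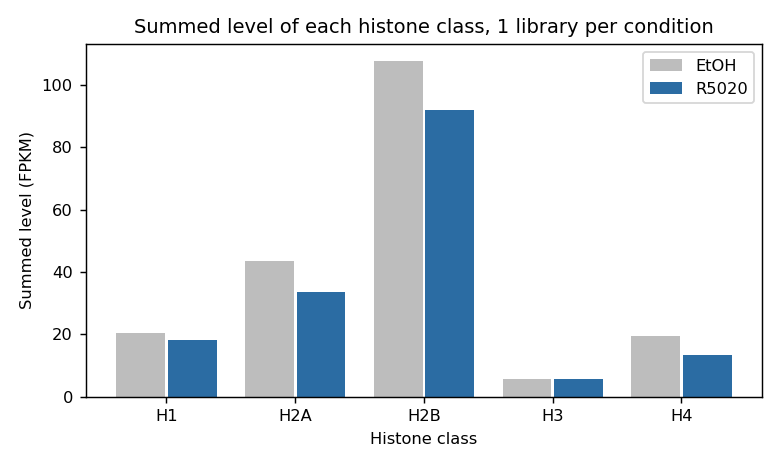
Summed level in FPKM of all members of each histone class, with grey bars for EtOH and blue bars for R5020, 1 library each and therefore no error bars. H2B is the highest in both conditions at 108 and 92.1 FPKM, H3 is the lowest at 5.85 and 5.68 FPKM, and every blue bar is below its grey one, a direction that turned for H3 with interval midpoints and for H4 without HIST1H4H.

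The H2B genes held most of the members with a high level. After *HIST1H2BD*, *HIST1H2BK* and *HIST2H2BE* came *HIST1H2BC* at 11.7 FPKM in EtOH and 9.44 FPKM in R5020, a log2 fold change of −0.28. *HIST1H2BG* went from 7.27 to 4.01 FPKM (−0.72) and was among the members past 1.5-fold. *HIST1H2BF* went from 4.35 to 2.58 FPKM, and its log2 fold change of −0.58 lay just inside the threshold. *HIST2H2BC*, a non-coding entry, went the other way, from 4.29 to 6.601 FPKM (0.52). Only 20.5% of its 50-base windows occurred once in the genome.

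Lower H2B members were close to the criterion of 1 FPKM. *HIST1H2BN* was the only retained member at least 1.5-fold higher, at 0.921 FPKM in EtOH and 2.08 FPKM in R5020 (0.68), and *HIST1H2BL* was lower, at 1.01 and 0.321 FPKM (−0.60). *HIST1H2BH* was at 2.58 and 1.60 FPKM (−0.46), *HIST3H2BB* at 1.28 and 1.12 FPKM (−0.11) and *HIST2H2BF* at 1.22 and 0.801 FPKM (−0.30). When an FPKM of at least 1 was required in both conditions, 4 members were lower and none higher, so *HIST1H2BN*, *HIST1H2BL* and *HIST1H3C* depended on a library in which they were under 1 FPKM.

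Of the H2A genes, *HIST1H2AC* was the highest at 12.4 FPKM in EtOH and 10.7 FPKM in R5020 (−0.20). *HIST3H2A*, of the HIST3 cluster, went from 9.44 to 5.05 FPKM (−0.79) and *HIST1H2AM* from 6.83 to 4.09 FPKM (−0.62), and both were past 1.5-fold. *HIST1H2AE* was at 5.10 and 4.14 FPKM (−0.25), *HIST1H2AL* at 2.91 and 3.23 FPKM (0.12), *HIST1H2AJ* at 1.93 and 1.95 FPKM (0.01) and *HIST2H2AC* at 1.34 and 1.89 FPKM (0.31). The H2A genes thus included levels that were lower, higher and nearly equal in R5020.

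The linker histone sum was 20.6 FPKM in EtOH and 18.3 FPKM in R5020, a log2 ratio of −0.16, and 1 gene carried most of it. *HIST1H1C* was at 16.8 and 15.7 FPKM (−0.10), *HIST1H1D* at 1.42 and 1.44 FPKM (0.01) and *HIST1H1E* at 1.31 and 0.760 FPKM (−0.39). *HIST1H1T*, the H1 gene of the male germ line, stayed under the criterion at 0.847 and 0.135 FPKM. The H1 transcripts are longer than those of most core histone members, at 725 to 790 nt.

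H3 and H4, which form the centre of the core, had few retained members. Part of this may be a matter of copies, since *HIST2H3A*, *HIST2H3C*, *HIST2H4A* and *HIST2H4B* each have an identical partner, as described below. The 14 H3 genes summed to 5.85 and 5.68 FPKM, a log2 ratio of −0.038 that became 0.071 with the interval midpoints. Among them were *HIST1H3D* at 2.67 in EtOH and 3.37 in R5020 (0.25) and *HIST1H3C* at 1.13 and 0.332 (−0.68). The locus of *HIST1H3D*, an 864 nt model, overlaps that of *HIST1H2AD*, which was at 0.974 and 0 FPKM. The values of both are therefore uncertain, although an overlap of their exons was not checked. The 15 H4 genes summed to 19.4 and 13.4 FPKM, a log2 ratio of −0.50. *HIST1H4H* alone set this direction. It went from 12.4 FPKM in EtOH to 5.92 FPKM in R5020 (−0.95), the largest difference of any retained member, and without it the H4 sum was 7.05 and 7.52 FPKM, a log2 ratio of 0.081. *HIST1H4E* was at 3.94 and 4.70 FPKM (0.21) and *HIST1H4C* at 1.001 and 0.399 FPKM (−0.52).

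By cluster, the HIST1 sum was 161 FPKM in EtOH and 133 FPKM in R5020 and the HIST2 sum was 25.04 and 23.7 FPKM. The HIST3 sum was 10.7 and 6.17 FPKM, of which *HIST3H2A* held 9.44 and 5.05. *HIST4H4*, the single gene of its cluster, was at 0.741 and 0.605 FPKM.

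Near-identical copies limit what a zero means among these genes, since the authors discarded reads that mapped to several positions. For the 70 unspliced member transcripts, the share of 50-base windows that occur once in the genome on either strand was counted, 50 nt being the read length. The median share was 99.3%, and 34 transcripts were unique in every window. At the other end 6 transcripts had no unique window, namely *HIST2H2AA3* with *HIST2H2AA4*, *HIST2H3A* with *HIST2H3C*, and *HIST2H4A* with *HIST2H4B*, each of which has the same sequence as its partner. All 6 were listed at 0 in both libraries, where a value above 0 could not have been measured from single reads.

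Another 7 transcripts were under 50% unique. *HIST1H4K* (8.20% unique) was at 0.212 and 0 FPKM, and *HIST1H4J* (8.79%) and *HIST2H3D* (22.1%) were listed at 0 in both libraries. *HIST1H2AJ* was 27.4% unique and *HIST1H2AI* 32.6%. Levels of such members may miss reads, although a mate in a unique stretch could have placed a pair, which these windows do not count.

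A listed zero was not always a matter of copies. Of the 34 transcripts unique in every window, 10 were at 0 in both libraries and 10 were at 1 FPKM or more in at least 1. Those at 0 include *HIST1H2AA*, *HIST1H2BA* and *HIST3H3*, known as histone genes of the testis, and also *HIST1H1A*, *HIST1H3F*, *HIST1H3G*, *HIST1H4D*, *HIST1H4G*, *HIST1H4L* and *HIST1H2APS1*.

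**Figure D4:**
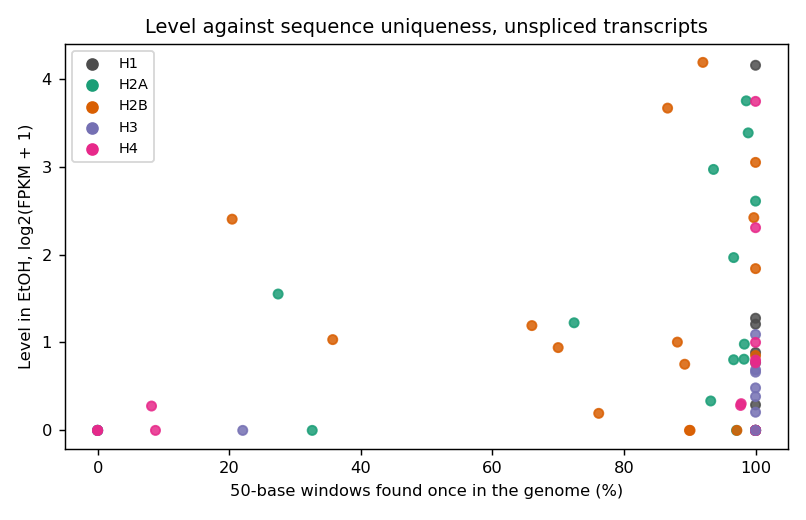
Level in EtOH as log2(FPKM + 1) against the percentage of 50-base windows found once in the genome, 1 point per unspliced member transcript, coloured by class. The 6 transcripts at 0% all lie at a level of 0, and transcripts at 100% range from 0 to the level of HIST1H1C.

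PR binding sites were scarce around these genes. An hg19 site lay in or within 10 kb of the locus of 4 of the 73 members (5.48%), against 27.4% of all 23287 gene symbols, which are often much longer. All 4 owed it to the same site at chr6:27843018-27843568, which is 551 bp long. It was 1728 bp from *HIST1H4L*, 2918 bp from *HIST1H3I*, 7658 bp from *HIST1H1B* and 9441 bp from *HIST1H2AL*. Its MACS score of 68.87, 10 times the negative log10 of the p-value, was under the median of 74.5 over the 11181 sites, and 38.4% of the sites scored lower.

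The genes next to this site were low. *HIST1H4L* was listed at 0 in both libraries, *HIST1H3I* was at 0.583 FPKM in EtOH and 0 in R5020, and *HIST1H1B* was at 0.223 and 0.344 FPKM. *HIST1H2AL* was the only one of the 4 that was retained, and its 2.91 and 3.23 FPKM differed by less than 1.5-fold. None of the 7 members past 1.5-fold had a site within 10 kb, but *HIST1H2AL* alone did among all retained members. Among all 11018 retained genes 3634 had one. Of the 7 members, *HIST1H2AM* was the nearest at 16.9 kb, and *HIST1H4H* was 97.6 kb and *HIST1H2BG* 166 kb from a site.

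Across the whole HIST1 span of 2.14 Mb there were 3 sites, or 1.405 per Mb, with scores of 68.87 to 168.9. This density was not set against that of the genome. The HIST2 span between 149397114 and 149859466 and the HIST3 span held none, but they are only 0.46 and 0.034 Mb long. The nearest site was at a median distance of 136 kb from the members, against 64.7 kb over all gene symbols with a site on their chromosome. Within 50 kb a site was found for 16 of the 73 members, against 10613 of the 23172 gene symbols with a site on their chromosome.

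The promoters of the members shared letters by class. RefSeq promoters of GRCh38.p14, 250 bases before to 50 after each start, were found for 65 of the 73 members and were read beside all 35116 promoters of the table, on both strands. TATAAA, the TATA box, was in 66.2% of the member promoters and 11.5% of all. CCAAT, bound by the factor NF-Y, was in 84.6% and 34.6%, and it stood in every promoter of an H1, H2A, H2B or H3 member but in 3 of the 13 H4 promoters. The octamer ATTTGCAT, bound by the factor OCT1 (*POU2F1*) and known from H2B promoters, was in 40% of the member promoters and 1.77% of all. By class it was in 14 of 18 H2B, 11 of 16 H2A and 1 of 12 H3 promoters and in none of the 6 H1 or 13 H4 promoters. TGTTCT, the core letters that PR and related steroid receptors bind, was in 30.8% of the member promoters and 14.8% of all. Promoter windows of neighbouring members can overlap, and those of *HIST1H2AD* and *HIST1H3D* are the same. The same motif can thus count for several members in these shares.

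**Figure D5:**
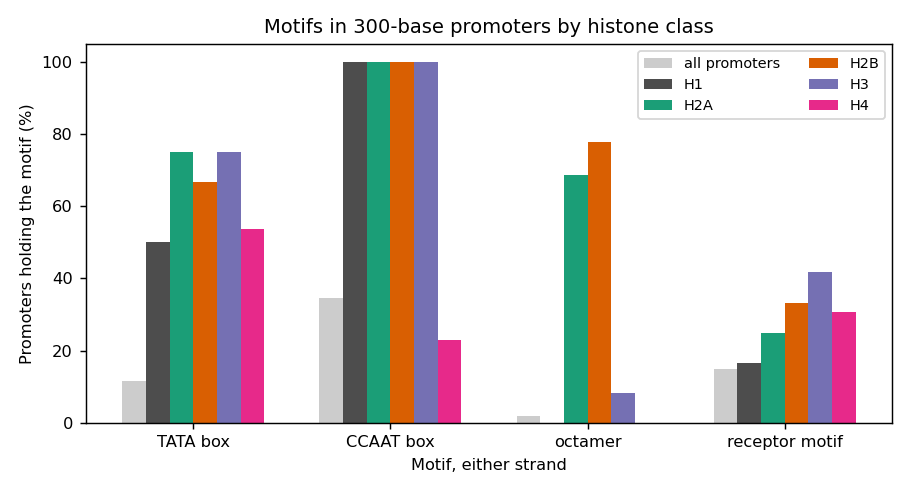
Percentage of 300-base promoters that hold the TATA box, the CCAAT box, the octamer or the receptor motif on either strand, with grey bars for all 35116 promoters and coloured bars for the members by class. The octamer bars stand at 77.8% for H2B and 68.8% for H2A against 1.77% for all promoters, and the CCAAT bar of H4 is at 23.1% where the other classes reach 100%.

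Many H2A and H2B genes lie head to head and share 1 octamer between their starts. The 30-base windows around the octamer formed 9 pairs that are reverse complements of each other, over 17 of the 26 members with an octamer, 1 of these pairs through the *HIST1H3D* model, which has the same promoter window as *HIST1H2AD*. 3 such gene pairs are shown as each gene's own strand reads, with the octamer or its complement in capitals and the coordinates of the promoter on GRCh38.p14.
HIST1H2AC, chr6:26123922-26124221, plus strand: tgggcagagctATGCAAATgaggtatgaaa
HIST1H2BC, chr6:26123877-26124176, minus strand: tttcatacctcATTTGCATagctctgccca
HIST1H2AE, chr6:26216671-26216970, plus strand: ataggcctttcATGCAAATaaagaattcaa
HIST1H2BG, chr6:26216639-26216938, minus strand: ttgaattctttATTTGCATgaaaggcctat
HIST2H2AC, chr1:149886668-149886967, plus strand: ataaccaccttATGCAAATtagggctccga
HIST2H2BE, chr1:149886633-149886932, minus strand: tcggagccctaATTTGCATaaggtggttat

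The levels within such a pair were close in some and far apart in others. *HIST1H2AC* and *HIST1H2BC* were at 12.4 and 11.7 FPKM in EtOH and at 10.7 and 9.44 FPKM in R5020. *HIST1H2AE* and *HIST1H2BG* were at 5.10 and 7.27 FPKM in EtOH and at 4.14 and 4.01 FPKM in R5020. *HIST2H2AC* and *HIST2H2BE* were at 1.34 and 17.2 FPKM in EtOH and moved in opposite directions, to 1.89 and 13.8 FPKM, the H2B model being the one that goes on to a polyadenylation signal. Of the 26 members with an octamer, 14 were retained and 2 were lower and none higher, and of the 39 without, 11 were retained with 4 lower and 1 higher. TGTTCT was in the promoters of 10 retained members, 3 of them lower, and not in those of 15, with 3 lower and 1 higher. The presence of a motif in a window is a description only.

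Genes that act on histones were read from lists beside the members, on the same scale. The replacement histones, most of which are also made outside S phase and from polyadenylated mRNA, were at a summed level of 632 FPKM in EtOH and 567 FPKM in R5020. This was above the 197 and 163 FPKM of all clustered members, an order that describes the RNA kept by oligo(dT) selection and not all histone mRNA. Of 19 such genes 12 were retained and none passed 1.5-fold, beside 7.67% higher and 4.14% lower among all retained genes. The median log2 fold change of the 12 was −0.18. *H3F3A*, a source of histone H3.3, was at 300.3 and 245 FPKM (−0.29), *H2AFZ*, which encodes H2A.Z, at 59.5 and 68.6 FPKM (0.20) and *H2AFY*, which encodes macroH2A, at 59.1 and 55.4 FPKM (−0.09).

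The 18 genes for factors that transcribe, process or degrade histone mRNA were all retained and none passed 1.5-fold, with a median log2 fold change of 0.14. Among all retained genes 7.67% were higher and 4.14% lower. *SLBP* was at 16.4 FPKM in EtOH and 21.5 FPKM in R5020 (0.37). *NCBP2*, a subunit of the cap-binding complex, was the highest at 78.5 and 77.8 FPKM (−0.01), and *CPSF2*, a subunit of the cleavage complex, was at 12.9 and 13.2 FPKM (0.04). *NPAT*, the coactivator of histone genes in S phase, was at 3.16 and 4.05 FPKM (0.28).

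Among 18 genes for histone chaperones and assembly factors, 2 were at least 1.5-fold higher and none lower, with a median of 0.11. The shares among all retained genes were 7.67% higher and 4.14% lower. *NAP1L4*, a chaperone of H2A and H2B, rose from 16.7 FPKM in EtOH to 51.9 FPKM in R5020 (1.58), and *RBBP7*, which binds H4, from 46.5 to 89.0 FPKM (0.92). A PR site lay in or within 10 kb of both, as it did for 6 of the 18 genes of the list and for 3634 of all 11018 retained genes. *NAP1L1* was at 67.4 and 72.5 FPKM (0.10, or −0.055 for its highest transcript alone) and *HAT1*, which acetylates new H4, at 31.3 and 34.8 FPKM (0.15).

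Of 23 S phase genes, all retained, 3 were at least 1.5-fold higher and none lower, beside 7.67% higher and 4.14% lower among all retained genes. Of the 23, 21 were above 0, and their median log2 fold change was 0.27. It is not set against that of the members, which differs little from the median of other genes with transcripts as short. *GINS2*, a subunit of the replicative helicase, rose from 11.3 to 33.99 FPKM (1.504), *CCNE2*, a cyclin of the entry into S phase, from 8.27 to 18.1 FPKM (1.04) and *E2F1*, a transcription factor of that step, from 3.61 to 6.45 FPKM (0.69). *PCNA*, the sliding clamp of the polymerases, was at 45.4 and 56.6 FPKM (0.31), *MCM4*, a helicase subunit, at 35.7 and 42.1 FPKM (0.23, or −0.39 for its highest transcript alone) and *TK1*, a kinase that makes thymidine phosphate, at 35.9 and 38.8 FPKM (0.11).

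Luminal epithelial markers were present in both libraries, with *KRT19* at 608 FPKM in EtOH and 477 FPKM in R5020 and *PGR*, the receptor gene itself, at 23.7 and 15.3 FPKM. *KRT8* and *KRT18* were listed at 0 in EtOH with a failed estimate and at 285 and 174 FPKM in R5020, so no fold is given for them. The leukocyte marker *PTPRC* was at 0.0135 and 0.00574 FPKM, *PECAM1* and *VIM* were under 1 FPKM, and *COL1A1* was at 5.12 and 3.31 FPKM. Coverage times transcript length over the read length came to 35151493 reads in EtOH and 36203604 in R5020. These cover listed transcripts only and are not the depth of the libraries, for which the study's methods state larger totals of unique pairs, with EtOH the deeper.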

How the data were processed

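The authors sequenced 50-bp paired-end libraries of poly(A)+ RNA, mapped them to hg19 by TopHat without the reads that fit several places, and ran Cufflinks. For each RefSeq transcript they deposited an FPKM with an interval, a status, a coverage (mean read depth) and a length. Whether strand was used in counting is not given in the sources used here. For the ChIP-seq library they deposited MACS sites with a score, made with Bowtie 1.1.2 against input DNA. The submitters' processing notes name Bowtie, TopHat and Cufflinks.

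Libraries were joined by transcript identifier and transcripts summed per symbol. Differences are log2((FPKM in R5020 + 1) / (FPKM in EtOH + 1)), a pseudocount of 1 that understates the change of low genes. Genes that reached an FPKM of 1 in either library were kept (retained), and calls were made at 1.5-fold, without a test, since there is 1 library per condition and no replicate error. FPKM holds no read counts, so no counting interval is given. Sites were tied to a gene when the nearest edge lay within 10 kb of a transcript extent. Sequences came from the GRCh37 genome, which is the hg19 assembly, and promoters from RefSeq on GRCh38.p14. The sequence of the PR site is not reported here. Strands came from GENCODE on GRCh37 or, for 5 transcripts, from the promoter table. All retained members were named, as were members near a site, copies with the same sequence, and of each list those past 1.5-fold (at most 6) with the 3 highest. NPAT and HAT1, from the lists, and some members under 1 FPKM were named beside this rule after their values were seen. The members and lists were chosen with earlier results of these data known. Python 3.11.15, pandas 2.3.3, numpy 2.4.6, pysam 0.24.0 and matplotlib 3.10.9 were used.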

Additional observations from a re-analysis of the deposited data

How the results depend on the processing

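With 1 library per condition no replicate could be left out. No paired analysis was possible because each condition has a single library. A value of a sum or median counts as changed here when its sign or its side of 1.5-fold differs. The number of lower and higher members was 10 and 2 with a pseudocount of 0.1, 0 and 0 at 2-fold, 9 and 3 without a filter, 4 and 0 where both libraries had to reach 1 FPKM, 2 and 0 with the midpoints of the deposited intervals, 9 and 1 with reads from coverage, 7 and 1 after rescaling, 4 and 1 with FPKM of 2 or more in either library, 6 and 1 with the highest transcript, and 1 and 3 after subtracting the median of other genes of the same length, against 6 and 1. Without a filter the median log2 fold change of the members was 0, as many were listed at 0, and after the subtraction it was 0.019. Under the other alternatives it lay between −0.38 and −0.20. The log2 ratio of the H3 sum was 0.071 with the midpoints and that of the H4 sum 0.081 without HIST1H4H. The other class sums kept their direction under the alternatives run for them. Members with a PR site numbered 0 in the locus itself, 16 within 50 kb, 4 within 10 kb of the start and 0 with scores of 100 or more. With a pseudocount of 0.1, 1 histone mRNA factor was higher. With a gene's highest transcript taken instead of its sum, 1 replacement histone was lower, and NAP1L1 (−0.055) and MCM4 (−0.39) turned. At 2-fold 1 chaperone was higher. Reads from coverage per kilobase of full length turned HIST1H1D (−0.088), HIST1H2AJ (−0.023), HIST1H2AL (−0.037), HIST1H2BK (−0.020) and CPSF2 (−0.054). Subtracting the median of the length range turned HIST1H1C (0.027), HIST1H2AC (0.10), HIST1H2AE (0.054), HIST1H2BC (0.019) and HIST3H2BB (0.19). Beyond the subtraction and the filters, which act by construction, the cause was not tested. The midpoints and the subtraction were chosen after the data were seen. Depth limits the members near 1 FPKM, where few reads decide a call.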
